A study of Homo sapiens with 6 samples.

Results

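The 10 genes described here encode the enzymes that activate and break down propionate in human cells. They are ACSS1, ACSS2 and ACSS3 (short-chain acyl-CoA synthetases), PCCA and PCCB (subunits of propionyl-CoA carboxylase), MCEE (methylmalonyl-CoA epimerase), MMUT (methylmalonyl-CoA mutase) and MMAA, MMAB and MMACHC (genes of its cobalamin cofactor). They were chosen by their function, with earlier results of these data known. Each symbol matched 1 of the 58735 Ensembl genes with deposited read counts. RNAseq was done on Meg-01, a human megakaryoblastic cell line established from a patient with chronic myeloid leukaemia in blast crisis. Libraries of untreated control cells (n = 3) were compared with libraries of cells given 500 µM sodium propionate (C3) for 48 h (n = 3). The labels give no time for the control, and the methods also name a shorter incubation before RNA extraction. The study calls such replicates technical and all come from 1 cell line, so p-values here measure only the spread between these libraries.

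Propionate that enters a cell must first be joined to coenzyme A, a reaction carried out by acyl-CoA synthetases. In mitochondria, propionyl-CoA carboxylase, a biotin enzyme, adds a carboxyl group, the epimerase turns the product into the other stereoisomer of methylmalonyl-CoA, and the mutase rearranges it to succinyl-CoA, an intermediate of the citric acid cycle. The mutase works only with adenosylcobalamin, which is made from vitamin B12 by a short series of processing proteins, and inherited loss of the carboxylase, the mutase or the cofactor proteins causes propionic or methylmalonic acidaemia. The route also receives propionyl-CoA from valine, isoleucine, methionine, threonine and odd-chain fatty acids.

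Library totals ranged from 16159449 to 22821722 counts. Mitochondrial transcripts made up 4.16% to 5.51% of the counts in control libraries and 3.51% to 3.87% after C3 treatment. Of 17 megakaryocyte and platelet markers, 15 reached 10 counts in at least 3 libraries, ITGA2B, GATA2 and RUNX1 among them, while PF4 and GP1BB were at a count of 0 in every library. All exon bases of GP1BB and 52.1% of those of PF4 are shared with other annotated genes of the same strand, which makes both counts of 0 hard to read. The summed normalized level of the 17 markers was 50490 to 53150 in control and 48480 to 51600 in C3 libraries, most of it from a few genes such as ITGA2B, GATA2 and RUNX1. Of the 15 tested, TUBB1 (log2 fold change -1.36), GP1BA (-0.49) and NFE2 (-0.38) fell and ITGB3 rose (0.34). Other genes lie opposite 35.5% of the exon bases of TUBB1 and share 33.2% of those of ITGB3 on its strand. For 8 erythroid markers, 6 of them at 10 counts or more in at least 3 libraries, the sums were 1231 to 1382 and 1437 to 1513. KLF1 and EPOR made up most of this sum, EPOR rose (0.35), HBA2 fell (-0.68) and the median of the 6 was 0.036. For 6 monocyte and granulocyte markers (2 of them, mainly LYZ, which fell by 0.51 on the log2 scale and has 34.7% of its exon bases opposite a long non-coding RNA) the sums were 817 to 864 and 623 to 639. For 5 lymphoid markers they were 68.9 to 82.3 and 64.3 to 99.0, and for 4 stromal and epithelial markers 191 to 239 and 190 to 226, with COL1A1 higher (1.89) at mean normalized counts of 4.52 and 16.9. The part of these shifts in the results below was not tested, and in bulk RNA fewer cells of a type and less RNA per cell cannot be told apart.

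Of the 10 genes, 1 fell and 0 rose at an adjusted p-value below 0.05 in edgeR's quasi-likelihood test, fitted on the 15078 genes that reached 10 counts in 3 or more libraries. DESeq2 and limma-voom also had 0 that rose. Over all tested genes 19.8% passed this rule, 8.77% lower and 11.0% higher, so the share of members that fell is close to the background. The gene that fell was PCCB. At an unadjusted p-value below 0.05, 3 genes were lower (PCCB, ACSS2 and PCCA) and 0 higher, and 15.3% and 16.8% of all tested genes met that rule. The study's stricter gates for differentially expressed genes (DEGs) ask for a fold change over 1.3 and an adjusted p under 0.01. By them 0 of the 10 genes were DEGs in edgeR, DESeq2 and limma-voom, against 6.52% of all tested genes (1.47% lower and 5.05% higher). The median log2 fold change of the 10 genes was -0.12, with 7 values below 0 and 3 above, and that of all tested genes was 0.0021, with 49.6% below 0.

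The values below are TMM-normalized counts, that is, reads per gene after scaling each library for its depth and composition, and fold changes are C3 over control on the log2 scale. The 95% intervals are those of edgeR's test and are not adjusted for the number of genes. They lay wholly within a fold change of 1.3 in either direction for 5 of the 10 genes (ACSS1, PCCB, MMUT, MMAB and MMACHC). For the other 5 (ACSS2, ACSS3, PCCA, MCEE and MMAA) the interval reached beyond it, so these data leave room for a change of that size.

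**Figure D1:**
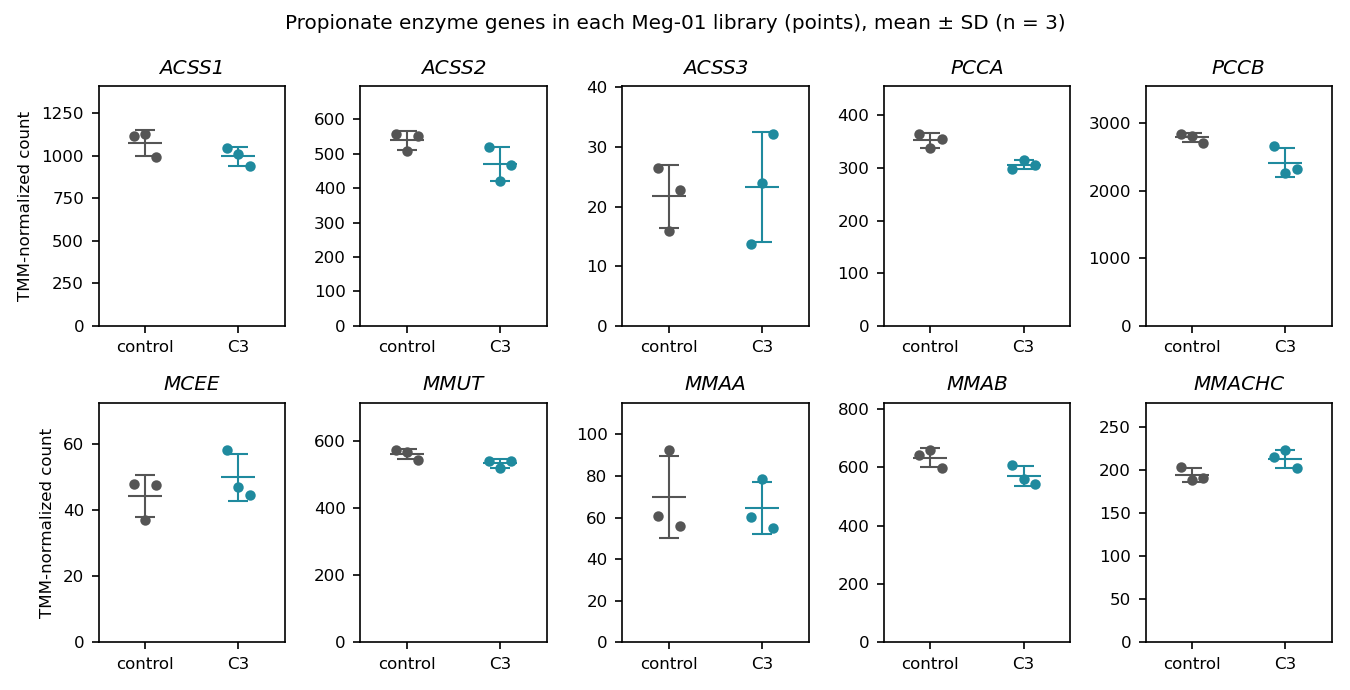
TMM-normalized counts (y axis, from 0, a scale of its own in each panel) of the 10 genes in control and C3 libraries; points are libraries, horizontal bars the mean and error bars the SD (n = 3). For PCCA, PCCB and MMUT the C3 libraries all lie below the control libraries, and in the other 7 genes the groups overlap.

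The acyl-CoA synthetases were examined first. ACSS1 (ENSG00000154930, chromosome 20 from 25006230 to 25058980, reverse strand of GRCh38), the mitochondrial enzyme known for activating acetate, had 1115, 1128 and 990 normalized counts in control libraries and 1048, 1009 and 937 after C3 treatment. The groups overlapped. Its log2 fold change was -0.11 (standard error, SE, 0.072, 95% interval -0.26 to 0.033, edgeR adjusted p = 0.29). ACSS2 (ENSG00000131069, chromosome 20 from 34872146 to 34927962, forward strand), the enzyme of cytosol and nucleus that makes acetyl-CoA from acetate and has been linked to histone acetylation, had 557, 507 and 553 counts in control and 520, 422 and 467 in C3 libraries. C3 replicate 1 lay within the range of the control libraries and the other two lay below it. The log2 fold change was -0.20 (SE 0.087, 95% interval -0.38 to -0.024, edgeR adjusted p = 0.10). Without C3 replicate 1 it was -0.28 and passed the test (edgeR adjusted p = 0.021), and over the 13 alternatives the adjusted p ran from 0.021 to 0.40.

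ACSS3 (ENSG00000111058, chromosome 12 from 80936414 to 81261210, forward strand) encodes a mitochondrial synthetase that prefers propionate. It was the least abundant of the 10 genes, with raw counts of 27, 15 and 19 in control and 12, 25 and 41 in C3 libraries. Normalized, these were 26.5, 15.9 and 22.7 against 13.7, 23.9 and 32.1. The C3 libraries held both the lowest and the highest value. Its log2 fold change of 0.14 had a 95% interval from -0.56 to 0.84 (edgeR adjusted p = 0.83), which at this depth leaves a fold change between 0.68 and 1.79. Of its exon bases, 10.7% lie opposite exons of PPFIA2 and LIN7A, so some of these reads are uncertain.

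The carboxylase subunits came next. PCCB (ENSG00000114054, chromosome 3 from 136250340 to 136337896, forward strand), the beta subunit that carries the carboxyl transfer, had 2841, 2813 and 2714 normalized counts in control libraries. After C3 treatment it had 2667, 2259 and 2324. All C3 libraries lay below all control libraries, with C3 replicate 1 the closest to them. Means were 2789 ± 66.7 and 2417 ± 219 (SD, n = 3 each), and the log2 fold change was -0.21 (SE 0.067, edgeR adjusted p = 0.027), a fold change of 0.87 with a 95% interval of 0.79 to 0.95. The adjusted p-value rose to 0.11 without control replicate 1 or control replicate 2, to 0.15 without C3 replicate 2 or C3 replicate 3, and to 0.13 when libraries were scaled by their totals alone. The call was thus lost in these settings, where the log2 fold change was -0.18, -0.20, -0.16, -0.18 and -0.14, in the order given. Without C3 replicate 1 the log2 fold change was -0.28 (edgeR adjusted p = 7.2e-04). The gene shares 22.2% of its exon bases with STAG1, a cohesin subunit gene on the opposite strand, which itself fell by 0.23 on the log2 scale (edgeR adjusted p = 0.020). The sources used here do not state whether strand was used in counting, and the part of STAG1 reads in the PCCB value was not tested.

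PCCA (ENSG00000175198, chromosome 13 from 100089015 to 100530437, forward strand), the alpha subunit that holds the biotin, had 364, 337 and 356 normalized counts in control and 298, 315 and 306 in C3 libraries. The groups did not overlap either. Means were 353 ± 13.9 and 306 ± 8.34 (SD, n = 3 each). Its log2 fold change was -0.20 (SE 0.093, 95% interval -0.39 to -0.011), close to that of PCCB, but it did not pass the test (edgeR adjusted p = 0.13, and 0.12 to 0.39 over the alternatives). Together with MMUT, PCCA and PCCB made 3 of 10 genes with C3 libraries wholly below the control libraries, and 0 of 10 lay wholly above. This held for 16.9% and 17.5% of all tested genes. An exact two-sided permutation test of 3 libraries against 3 cannot go below 0.1, which is the value for these 3 genes.

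To show the sequence before the start of the 2 genes that encode 1 enzyme, the bases upstream of both the RefSeq and the GENCODE start are given 5′ to 3′ on the gene's strand (RefSeq, GRCh38.p14). For PCCA these are chr13:100088843-100089014 and for PCCB chr3:136250090-136250339. Capitals mark matches on either strand to GGGCGG (the letters of a GC box) in PCCA and to ACTACA (the core of the motif bound with THAP11 and ZNF143) in PCCB.
PCCA: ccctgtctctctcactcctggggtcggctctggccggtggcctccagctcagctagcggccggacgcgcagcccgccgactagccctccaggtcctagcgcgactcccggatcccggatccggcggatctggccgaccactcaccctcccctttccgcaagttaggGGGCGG
PCCB: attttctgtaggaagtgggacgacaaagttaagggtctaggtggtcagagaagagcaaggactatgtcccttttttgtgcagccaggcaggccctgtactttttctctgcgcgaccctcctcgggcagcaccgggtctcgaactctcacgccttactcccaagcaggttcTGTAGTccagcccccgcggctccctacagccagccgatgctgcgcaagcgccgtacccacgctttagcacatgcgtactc

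CCAAT was not found in either stretch. The E-box letters CACGTG were also not found, and no TATA box (TATAAA) was present on either strand. Within the 250 bases before the RefSeq start, PCCA holds GGGCGG, a motif found in 42.3% of 27305 such windows, and PCCB holds ACTACA, found in 7.76%. The GC content of the windows was 69.2% for PCCA and 57.6% for PCCB. The matches are descriptions of these letters only. The PCCA stretch also holds the start of PCCA-DT, a long non-coding RNA on the other strand. RefSeq windows were matched for 9 of the 10 genes, all but ACSS3.

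Next came the steps from methylmalonyl-CoA to succinyl-CoA. MCEE (ENSG00000124370, chromosome 2 from 71109684 to 71130239, reverse strand) had 48.0, 37.1 and 47.8 normalized counts in control and 58.0, 46.9 and 44.7 in C3 libraries. The groups overlapped, and at 35 to 57 raw counts a library the interval was wide, with a log2 fold change of 0.16 (95% interval -0.30 to 0.62, edgeR adjusted p = 0.68). It was 0.046 without control replicate 2 and 0.047 without C3 replicate 1. MMUT (ENSG00000146085, chromosome 6 from 49430360 to 49463253, reverse strand) had 573, 568 and 545 counts in control and 543, 520 and 541 in C3 libraries. The C3 libraries lay below the control libraries, but the gap between the nearest of them was smaller than the spread within either group. The log2 fold change was -0.073 (SE 0.077, 95% interval -0.23 to 0.085, edgeR adjusted p = 0.56), and it was 0.0011 when libraries were scaled by their totals alone.

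The cofactor genes differed in level, and none of them passed the test in either direction. MMACHC (ENSG00000132763, chromosome 1 from 45500300 to 45513382, forward strand), whose product takes the upper ligand off incoming cobalamin, had 204, 189 and 191 normalized counts in control and 215, 223 and 202 in C3 libraries. Only C3 replicate 3 fell within the control range. The log2 fold change was 0.13 (SE 0.11, 95% interval -0.10 to 0.36, edgeR adjusted p = 0.47). Exons of PRDX1 lie opposite 9.92% of its exon bases, and PRDX1 had a log2 fold change of -0.16 (edgeR adjusted p = 0.096). PRDX1 was far more abundant, with mean normalized counts of 4800 in control and 4309 in C3 libraries. The part of PRDX1 reads in the MMACHC value was not tested. MMAA (ENSG00000151611, chromosome 4 from 145599042 to 145660033, forward strand), the G protein that guards cofactor loading of the mutase, had 60.7, 92.3 and 56.1 counts in control and 60.3, 78.5 and 54.9 in C3 libraries. Replicate 2 was the highest of each group. Its log2 fold change was -0.12 (95% interval -0.55 to 0.32, edgeR adjusted p = 0.75) and turned to 0.14 without control replicate 2.

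MMAB (ENSG00000139428, chromosome 12 from 109553715 to 109573580, reverse strand), the adenosyltransferase that makes adenosylcobalamin, had 644, 657 and 597 normalized counts in control libraries. In C3 libraries it had 607, 559 and 541. C3 replicate 1 lay above control replicate 3, and the other C3 libraries lay below all controls. The log2 fold change was -0.16 (SE 0.078, 95% interval -0.32 to 0.0030, edgeR adjusted p = 0.16). MMAB and MVK, the mevalonate kinase gene of cholesterol synthesis, overlap head to head, with starts 325 bases apart on opposite strands and 225 exon bases in common. MVK had 408 ± 24.6 counts in control and 348 ± 12.6 in C3 libraries (SD, n = 3 each), with a log2 fold change of -0.22 (edgeR adjusted p = 0.080), so neither gene of the pair passed. CCDC163, which starts 221 bases from MMACHC on the other strand, had 33.4 ± 4.37 and 41.3 ± 7.31 counts (log2 fold change 0.31, adjusted p = 0.43).

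**Figure D2:**
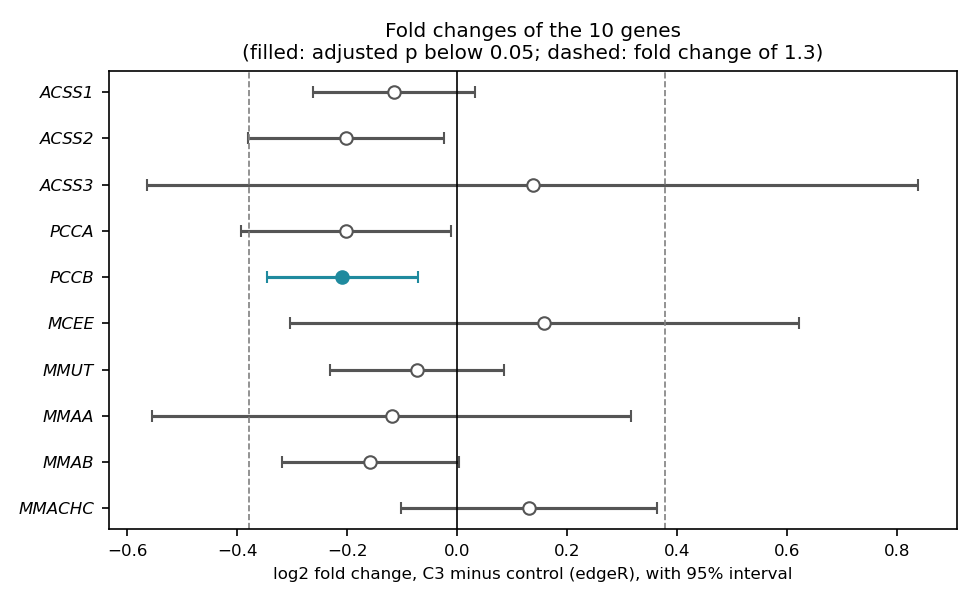
Log2 fold change of C3 over control (x axis) of the 10 genes by edgeR's test, with 95% intervals that are not adjusted for the number of genes. PCCB, the filled point at -0.21, is the gene with an adjusted p-value below 0.05, and dashed lines mark a fold change of 1.3 in either direction.

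Levels were compared between genes per kilobase of merged exons, as normalized counts. PCCB was the highest in control cells (372 ± 8.90), followed by MMUT (148 ± 4.02), ACSS1 (124 ± 8.78), MMAB (105 ± 5.26), ACSS2 (103 ± 5.33), PCCA (48.4 ± 1.91), MMACHC (38.5 ± 1.60), MCEE (27.3 ± 3.83), MMAA (8.32 ± 2.35) and ACSS3 (1.17 ± 0.29; SD, n = 3 each). Between neighbours in this order, the ranges of the control libraries overlapped for MMAB and ACSS2 alone. After C3 treatment the order was the same except that MMACHC (42.3 ± 2.07) and PCCA (42.0 ± 1.15) changed places, with overlapping values. The order depends on the length used. Per kilobase of coding sequence, PCCB was still the highest and MCEE, MMAA and ACSS3 still the lowest, but MMAB came next after PCCB and PCCA dropped to place 7.

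**Figure D3:**
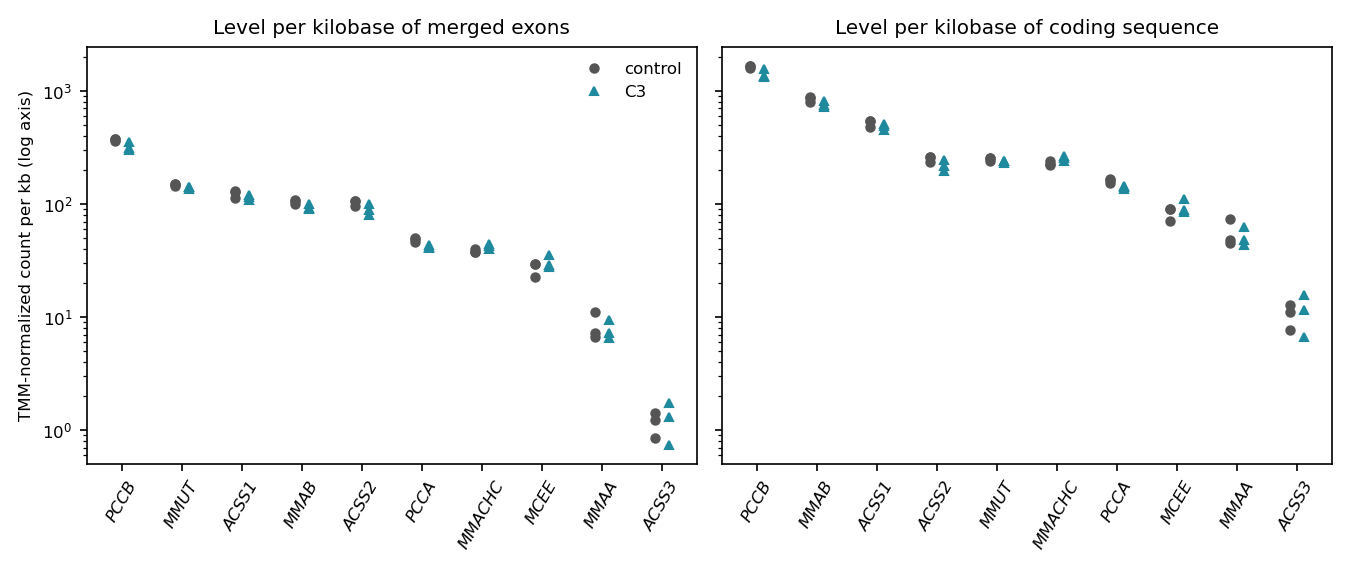
TMM-normalized counts per kilobase (y axis, log scale) of the 10 genes in each control (circle) and C3 (triangle) library, per kilobase of merged exons on the left and of coding sequence on the right. PCCB is at the top and ACSS3 at the bottom in both panels.

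Within libraries, ratios of the gene pairs do not depend on the scaling of libraries. PCCB mRNA exceeded PCCA mRNA per kilobase by 7.69 times in control and 7.65 times in C3 cells, or by 10.1 times in control cells with coding lengths. The log2 ratio of PCCA to PCCB was -2.94 ± 0.067 in control and -2.94 ± 0.16 in C3 libraries (SD, n = 3 each), a difference of 0.0084 (exact two-sided permutation p = 0.9). In C3 libraries it spread from -3.12 in replicate 1 to -2.80 in replicate 2, so the near-zero difference comes with a wide spread. For MMAB over MMUT the difference between groups was -0.082 (exact permutation p = 0.2) and for ACSS2 over ACSS1 it was -0.093 (exact permutation p = 0.4). The first was -0.038 without C3 replicate 3, and the second was -0.010 without C3 replicate 2, -0.014 without control replicate 3 and -0.17 without control replicate 2. Adjusted over the 3 ratios compared, the p-values were 0.9, 0.6 and 0.6. Among the synthetases, ACSS1 gave 51.7% to 57.1% of the summed level per kilobase of merged exons in control libraries, ACSS2 42.5% to 47.8% and ACSS3 0.38% to 0.61%. In C3 libraries these shares were 54.3% to 58.7%, 40.7% to 45.0% and 0.34% to 0.88%. They depend on the length used. Per kilobase of coding sequence, ACSS1 gave 64.0% to 69.1% in control libraries, ACSS2 30.0% to 34.5% and ACSS3 0.98% to 1.58%, and in C3 libraries 66.0% to 70.1%, 28.3% to 32.1% and 0.88% to 2.28%.

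Other genes of the pathway and genes linked to it were read from 10 lists written from general knowledge. The lists held 87 genes in all, of which 78 were tested. Among them were 16 targets of the sterol-sensing SREBP factors, 3 regulators of MMACHC transcription, 3 gene neighbours of members and 3 sirtuins. The shares that follow are thus not those of pathway genes alone. Of the 78 tested genes, 15 fell (19.2%) and 4 rose (5.13%), beside 8.77% and 11.0% of all tested genes. SREBP targets made up 2 of the 4 that rose. The number that fell was 23 without C3 replicate 1 and 8 without C3 replicate 3. With library totals alone as the scaling, 11 fell and 9 rose, and in DESeq2 15 fell and 1 rose, so the balance depends on these choices. The largest share was among genes of biotin supply and other biotin carboxylases, where 4 of 8 fell, 0 rose and the median log2 fold change was -0.20. With C3 replicate 3 left out, 2 of the 8 fell.

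Biotin must be attached to PCCA for the carboxylase to work. HLCS, the holocarboxylase synthetase that attaches it, had 1021, 1023 and 1002 normalized counts in control and 829, 745 and 776 in C3 libraries. Its log2 fold change was -0.38 (SE 0.070, edgeR adjusted p = 3.6e-04). BTD, which frees biotin for reuse, fell from 171 ± 16.3 to 117 ± 12.8 counts (SD, n = 3 each; log2 fold change -0.55, adjusted p = 0.0054) and passed the study's DEG gates in edgeR but not in DESeq2 (adjusted p = 0.017), and it missed them in 6 of the 13 alternatives in all. MCCC2, a subunit of the leucine-degrading biotin carboxylase, had a log2 fold change of -0.23 (adjusted p = 0.0073, or 0.060 without C3 replicate 3). SLC5A6, the transporter that brings biotin into the cell, had -0.26 (adjusted p = 0.0074) and is named after its value was seen. Exons of other genes lie opposite 13.7% of the exon bases of HLCS, 7.02% of BTD and 6.82% of SLC5A6.

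Of the cobalamin uptake and trafficking genes, 1 of 9 tested fell and 1 rose. MMADHC, which hands cobalamin on from MMACHC towards mitochondria or cytosol, had 1473, 1487 and 1637 normalized counts in control and 1224, 1231 and 1247 in C3 libraries, with no overlap. Its log2 fold change was -0.31 (SE 0.065, edgeR adjusted p = 0.0012), and 24.3% of its exon bases lie opposite a long non-coding RNA. TCN1, a cobalamin-binding protein, rose from 53.3 ± 4.43 to 85.5 ± 15.5 counts (log2 fold change 0.68, adjusted p = 0.014), but not with DESeq2 (adjusted p = 0.057) or without C3 replicate 2 (adjusted p = 0.11). Of 3 regulators of MMACHC transcription (HCFC1, THAP11 and ZNF143), THAP11 fell (log2 fold change -0.21, edgeR adjusted p = 0.046), a call lost in 9 of 13 alternatives. CENPT lies opposite 20.3% of its exon bases.

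Where propionyl-CoA comes from and where succinyl-CoA goes was covered by other lists. For branched-chain amino acid breakdown and the 3-hydroxypropionate side route, 1 of 15 tested genes fell, the enoyl-CoA hydratase ECHS1 (log2 fold change -0.19, edgeR adjusted p = 0.037), and its call was lost without control replicate 1, control replicate 2, C3 replicate 2 or C3 replicate 3 and with library totals alone. BCKDHA was not tested, with 1 to 5 counts per library, and 73.7% of its exon bases are shared with another gene of its strand. Of 10 genes of succinyl-CoA use, 3 fell and 0 rose, with a median of -0.15. These were SDHC, a subunit of succinate dehydrogenase (-0.28, adjusted p = 0.0032), ALAS1, which uses succinyl-CoA for haem synthesis (-0.26, adjusted p = 0.0051), and the fumarase gene FH (-0.20, adjusted p = 0.029, lost in 6 of 13 alternatives). The succinyl-CoA ligase genes SUCLG1, SUCLG2 and SUCLA2 had log2 fold changes of -0.074, -0.071 and -0.043 with adjusted p-values of 0.47, 0.56 and 0.71.

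Of 8 tested genes of acylcarnitine export and acyl-CoA clean-up, 3 fell and 0 rose. MLYCD, the malonyl-CoA decarboxylase gene, fell from 280 ± 10.4 to 193 ± 11.1 normalized counts (SD, n = 3 each; log2 fold change -0.54, edgeR adjusted p = 7.5e-04). SLC25A20, the carnitine-acylcarnitine carrier of the inner mitochondrial membrane, had 480 ± 47.6 and 353 ± 12.9 (-0.45, adjusted p = 9.9e-04). Both were DEGs in edgeR and DESeq2, and each missed the gates in 1 of 13 alternatives (MLYCD without C3 replicate 3, SLC25A20 with library totals alone). SLC22A5, the carnitine transporter of the plasma membrane, had a log2 fold change of -0.35 (adjusted p = 0.0080, or 0.061 without C3 replicate 3). Among the other short- and medium-chain acyl-CoA synthetases, 5 of 10 were tested. ACSM3, a mitochondrial synthetase for medium-chain acids, fell from 810 ± 100.3 to 603 ± 44.8 (-0.42, adjusted p = 9.5e-04) and was a DEG, except with library totals alone or without control replicate 3. ACSF2 rose (0.27, adjusted p = 0.013, or 0.055 without control replicate 3 and 0.059 without C3 replicate 3). ERI2 lies opposite part of ACSM3, whose exon bases were shared at 11.7%, and those of MLYCD were shared at 12.9% with genes of the same strand.

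ACSS2, MMAB and MVK are known targets of the sterol-sensing SREBP factors, so other targets were read beside them. Of 15 tested genes of that list, which includes MVK, 0 fell and 2 rose, with a median log2 fold change of 0.031. These were HMGCS1 (0.25, adjusted p = 0.020) and STARD4 (0.29, adjusted p = 0.028), each lost in 6 of 13 alternatives, DESeq2 among them. A long non-coding RNA lies opposite 37.7% of the exon bases of HMGCS1. Of 3 sirtuins, which remove acyl groups from proteins including acyl-CoA synthetases, SIRT1 fell (-0.29, adjusted p = 0.033, lost in 7 of 13 alternatives), and SIRT3 and SIRT5 had values of -0.013 and -0.030.

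**Figure D4:**
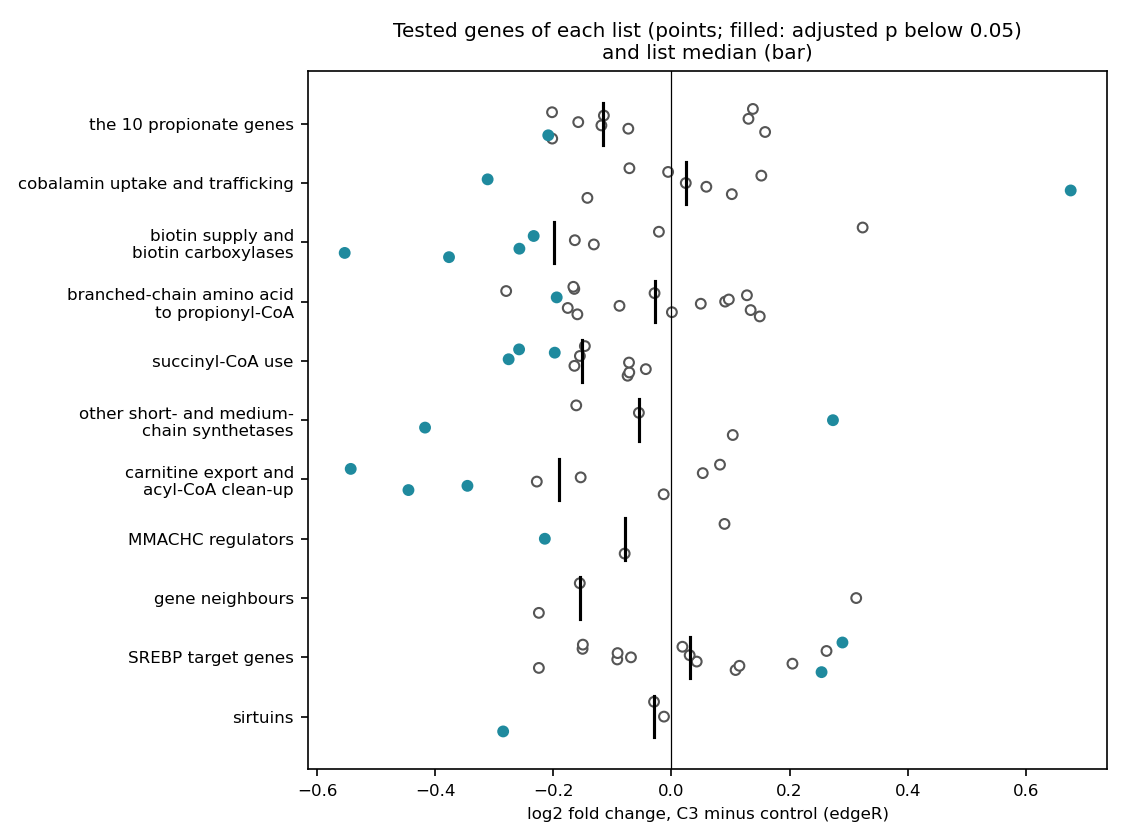
Log2 fold change of C3 over control (x axis) for each tested gene (point) of the 10 enzyme genes and of the other lists, with the list median as a bar and genes with an adjusted p-value below 0.05 filled. The biotin list (median -0.20) has 4 filled points, all below 0, and the 10 propionate genes have 1.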

How the data were processed

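Raw reads were processed by the authors with fastp, mapped to GRCh38/hg38 with STAR (2.6.1d) and counted per gene with featureCounts (1.5.0-p3), as the methods and the submitters' processing notes give it. The deposited values are raw counts, 1 column per library, for 58735 Ensembl genes. Neither the annotation release nor strand use in counting is given in the sources used here. Columns were matched to libraries by their names.

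Genes reaching 10 counts in 3 or more libraries entered edgeR's quasi-likelihood fit (4.0.16, R 4.3.3) with TMM factors and Benjamini-Hochberg adjustment over all 15078 genes. "Rose" and "fell" mean an adjusted p-value below 0.05. Standard errors are the log2 fold change over the square root of F. The fits were tested on 5 simulated data sets. A first criterion, a minimum share of changed genes recovered in a single draw, was not met, was lowered, and then failed with another random draw. It was replaced by criteria on estimates and false calls, which were met, with recovery left without a minimum. Many smaller changes and changes in genes of low count were not recovered, so a gene that did not pass may still have changed. Exact permutation tests used scipy 1.17.1. Symbols (58207 of 58735 identifiers), lengths and overlaps came from GENCODE release 44 on GRCh38 and promoter sequences from RefSeq. Totals were 16159449 to 22821722 counts per library, and intervals rest on the spread between libraries (common biological coefficient of variation 6.21%) as well as on counting error.

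The members and lists were chosen with earlier results of these data known. Named were all members, from each pathway list up to 3 called genes by lowest p, and MMADHC, HLCS, MVK, CCDC163, PRDX1, SUCLG1, SUCLG2 and SUCLA2. SLC5A6, SIRT3, SIRT5 and the genes of the marker lists were added after their values were seen, and STAG1 after its overlap with PCCB was seen. For all of these added genes, values under the alternatives are not given. Alternatives were RLE factors, library totals alone, DESeq2 (1.42.0) on all genes, limma-voom (3.58.1), no filter, a minimum mean count of 50, the replicate block and each library left out.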

Additional observations from a re-analysis of the deposited data

How the results depend on the processing

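With library totals alone as the scaling, the median log2 fold change over all tested genes was 0.076. Under it PCCB was at -0.14 with an edgeR adjusted p-value of 0.13, and 0 members fell. MMUT, SUCLG2 and SUCLA2 turned to 0.0011, 0.0039 and 0.032, and 11 list genes fell and 9 rose. SUCLG1 was at -2.5e-04, PRDX1 at -0.081, ECHS1 at -0.12, FH at -0.12, THAP11 at -0.14 and MVK at -0.15. The other members were at -0.13 (PCCA), -0.084 (MMAB), -0.041 (ACSS1), -0.043 (MMAA), -0.13 (ACSS2), 0.21 (MMACHC), 0.23 (MCEE) and 0.22 (ACSS3), none of them called. DESeq2, run without the count filter and with size factors and independent filtering of its own, had 1 list gene that rose. With each library left out, the number of members that fell ran from 0 to 2, that of list genes that fell from 8 to 23, that of list genes that rose from 1 to 5, and that of biotin genes that fell from 2 to 5. The log2 fold change ran from -0.28 to -0.16 for PCCB, -0.28 to -0.13 for ACSS2, -0.28 to 0.14 for MMAA, -0.19 to 0.38 for ACSS3, 0.046 to 0.24 for MCEE, -0.17 to -0.069 for ACSS1, -0.095 to -0.047 for MMUT, -0.10 to -0.016 for SUCLG1, -0.13 to -0.0086 for SUCLG2, -0.19 to -0.086 for PRDX1 and -0.092 to 0.0060 for SUCLA2, and the ratio differences from -0.059 to 0.10 for PCCA to PCCB, -0.12 to -0.038 for MMAB to MMUT and -0.17 to -0.010 for ACSS2 to ACSS1. The cause of these shifts was not tested. The numbers of members that rose and of member DEGs were 0 in all 13 alternatives. MCEE and ACSS3 fell below a mean count of 50 and have no value there.

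The labels do not say whether replicate numbers pair the libraries. Same-numbered libraries correlated at -0.047 to 0.030 in their deviations from the group means. Not every library correlated best with its own number. No pairing is thus shown, but correlations over so few libraries cannot decide the question. With the replicate block, PCCB stayed at -0.21 (edgeR adjusted p = 0.0098) and the number of members that fell at 1. The PCCA to PCCB difference of 0.0084 cannot change under the block, since both groups hold the same replicate numbers. Raw counts were 12 to 41 for ACSS3, 35 to 57 for MCEE and 47 to 87 for MMAA.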
